A study of Petrolisthes cinctipes with 164 samples.

Results

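Gene expression was compared between heat stressed and control porcelain crabs that had recovered for 2 h. The samples were chosen by their titles, which name the 2 h recovery time point, and they comprise 20 of the 164 deposited channels and 10 of the 82 crabs of the series. Petrolisthes cinctipes is a small crab of the intertidal zone. Animals from the field were either warmed from 11 to 30 °C over 4 h (2h heatstressed, n = 5 crabs) or held at 11 °C for the same time (2h control, n = 5 crabs), and all of them were then moved to a common recovery aquarium at 11 °C. Both groups are thus wild crabs that were handled alike apart from the warming, and the labels give neither a tissue, an age nor a sex, so that no tissue could be checked by its markers. The study sampled 9 recovery time points from 0.5 to 30 h, each from other crabs. At 2 h, title and description gave the same treatment in all 20 channels, whereas in 20 channels of other time points they gave opposite treatments (4 at 4 h, 8 at 6 h and 2 each at 12, 18, 24 and 30 h).

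The values are log2 intensities of 13818 cDNA probes on 2-dye arrays. Each heat stressed crab shared its arrays with the control crab of equal replicate number, and the pair was hybridised on 2 arrays, array a with the heat stressed crab in Cy5 and array b with the dyes exchanged. The values of arrays a and b were averaged for every crab, and the control crab was subtracted from the heat stressed crab of its pair. The 5 resulting differences, in log2 units, are the measurement described below: a difference of 1 is a doubling. Channel medians at 2 h ranged from 6.91 to 9.17, but both channels of any array had medians within 0.066 of each other. Levels of different crabs therefore vary with the brightness of their arrays, which is why crabs were compared within pairs. The number of pairs, 5, limits the precision, as the 2 arrays of a pair hold the same RNAs.

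Animals that live between the tides meet rapid warming when they are exposed to air, and ectotherms answer such warming with the heat shock response. In that response, heat shock transcription factors switch on genes for molecular chaperones, which hold and refold damaged proteins, while many other transcripts decline. Mitochondria are a second place where heat acts on ectotherms. ATP synthase makes ATP from the proton gradient across the inner mitochondrial membrane. Its subunit a, part of the proton channel, is encoded in the mitochondrial genome of animals, as is subunit 2 of cytochrome c oxidase, the enzyme that passes electrons to oxygen. Most probes of the table are known only by their plate and well, so the results are given by probe, and a gene is named for 6 probes that the paper annotates.

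At 2 h, 28 probes were higher and 12 were lower in heat stressed crabs. The raised probes spanned differences from 0.80 to 3.72, with a median of 1.62, which corresponds to folds from 1.74 to 13.2. The lowered probes spanned -1.58 to -0.51, with a median of -1.20, and the largest fall was 2.99-fold. The rise thus reached further than the fall: 11 raised probes changed by more than 2 log2 units and 0 lowered probes did. The 2 sets started from different levels. Relative to the median of the channel, control levels ran from -0.75 to 2.44 (median 0.51) in the raised probes. In the lowered probes they ran from 1.48 to 4.05 (median 2.89). Whether the starting level limited the size of a fall was not tested. Most of the array moved little, since the median size of the difference over all 13818 probes was 0.071 and its 99th percentile 0.54. The labels do not tell whether cells changed in number or in their RNA content, and in such samples fewer cells of a type and less RNA per cell cannot be told apart.

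These calls are from limma on the 5 pair differences, with Benjamini-Hochberg adjustment over all 13818 probes and an adjusted p under 0.05. They make up 0.203% of all probes for the raised and 0.0868% for the lowered direction, and 526 probes had an unadjusted p under 0.05. In each of the 40 probes all 5 pairs had the same sign, against 3.8% of all probes with 5 differences above 0 and 2.6% with 5 below 0. The probes were called on these same 5 differences, so their shared sign largely follows from the call and is no further evidence for it. The number of calls rests on the pairing and on the number of pairs. Without the replicate block, limma called 1 probe from the 10 crabs of 2 h, raised, and 14 raised and 0 lowered when all 82 crabs entered the fit. With 4 pairs, 16 probes were called without replicate 1, 13 without replicate 2, 10 without replicate 3, 30 without replicate 4 and 16 without replicate 5. Among the 40 probes, 4 raised and 5 lowered ones were called in each of these 5 fits, and 4 raised and 4 lowered ones in 0 of them.

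**Figure D1:**
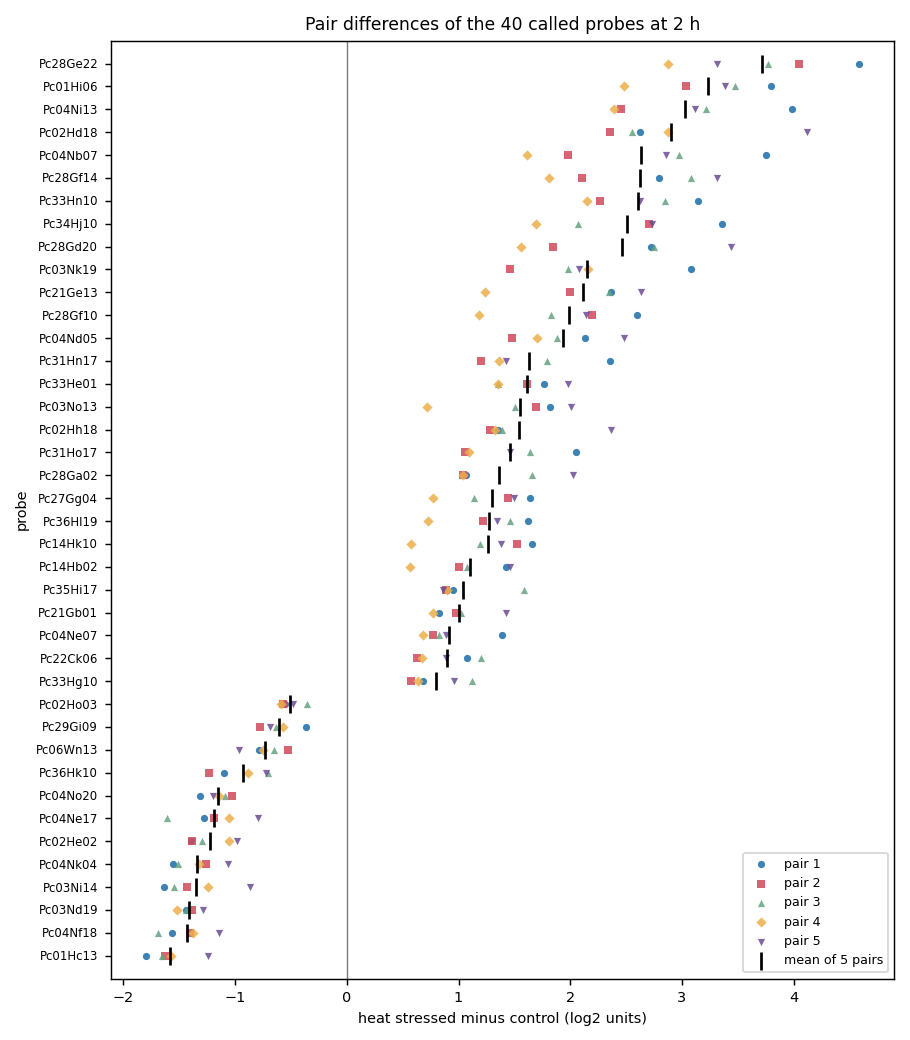
Difference between the heat stressed and the control crab of each of 5 pairs (symbols, log2 units, x axis) and their mean (bar) for the 40 probes called at 2 h (y axis), ordered by the mean. All 5 pairs lie on the same side of 0 for every probe, and pair 4 gives the smallest difference in 17 of the 28 raised probes.

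Pc28Ge22 rose the most. Its level in the control crabs was 9.44, 7.75, 9.25, 7.97 and 8.18 in pairs 1 to 5, and in the heat stressed crabs it was 14.02, 11.80, 13.02, 10.85 and 11.50 on the log2 scale. Every heat stressed crab lay above every control crab. The differences of the 5 pairs were 4.58, 4.05, 3.77, 2.88 and 3.32, which gave a mean of 3.72 ± 0.66 (SD, n = 5 pairs), a 13.2-fold rise (standard error 0.24, adjusted p = 0.0036 in limma). Pc01Hi06 followed with control levels of 9.71, 8.36, 8.97, 7.84 and 8.86 and heat stressed levels of 13.50, 11.40, 12.45, 10.31 and 12.24. Again the groups did not overlap, and the mean difference was 3.23 ± 0.50 (SD, n = 5 pairs; adjusted p = 0.0031 in limma).

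Pc02Hd18 differed in the pair that responded most. Its control crabs stood close together, from 9.20 to 10.14, and the heat stressed crabs at 12.77, 12.47, 12.20, 12.08 and 13.82. The lowest heat stressed crab was well above the highest control crab. The difference was 4.12 in pair 5 and 2.35 to 2.87 in the others, with a mean of 2.91 ± 0.70 (SD, n = 5 pairs; adjusted p = 0.014 in limma). It was also the probe that limma called from the 10 crabs without the replicate block. Pc04Ni13 rose by 3.03 ± 0.65 (SD, n = 5 pairs), from 3.98 in pair 1 to 2.40 in pair 4, and its groups did not overlap.

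The other 8 of the 12 probes with the largest rises were Pc04Nb07, Pc28Gf14, Pc33Hn10, Pc34Hj10, Pc28Gd20, Pc03Nk19, Pc21Ge13 and Pc28Gf10, with mean differences of 2.64, 2.62, 2.61, 2.51, 2.46, 2.15, 2.12 and 1.99. Their adjusted p in limma lay between 0.0031 for Pc33Hn10 and 0.034 for Pc04Nb07. Pc33Hn10 was the steadiest of these 8, with pair differences of 3.14, 2.26, 2.85, 2.15 and 2.63 and an SD of 0.41, and it was called whichever replicate was left out. Pc04Nb07 was the most variable, with 3.76 in pair 1 and 1.62 in pair 4 and an SD of 0.85. The remaining 16 raised probes changed by 0.80 to 1.93. The smallest of them, Pc33Hg10, had pair differences of 0.68, 0.58, 1.12, 0.64 and 0.96.

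**Figure D2:**
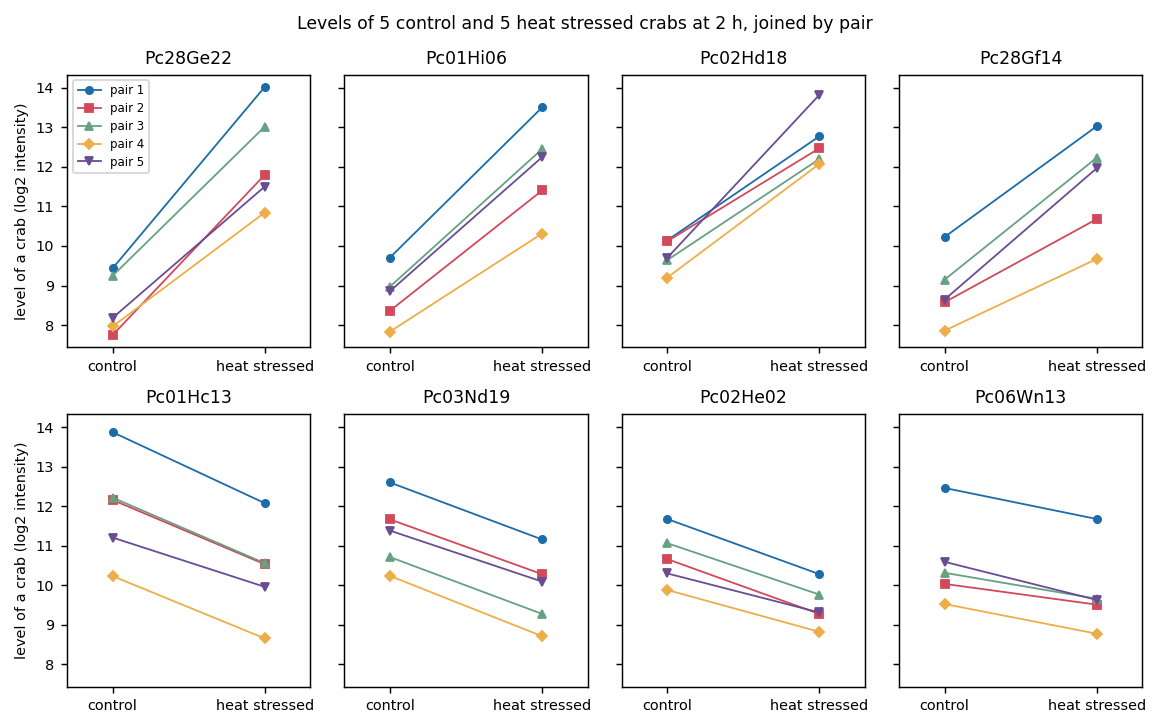
Level of each crab on the log2 scale (y axis) for 4 raised probes (top) and 4 lowered probes (bottom), with the control and the heat stressed crab of a pair joined by a line (x axis, n = 5 pairs, no error bars). All lines rise in the top row and fall in the bottom row, while the pairs differ in level.

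The groups of crabs did not overlap in part of the raised probes. In 14 of the 28 raised probes the lowest heat stressed crab was above the highest control crab, a pattern seen in 0.138% of all probes. The opposite pattern, every heat stressed crab below every control crab, was seen in 0 of the 12 lowered probes and in 0% of all probes, so that this count is no result about the lowered probes. When each level was taken relative to the median of its channel, a scale chosen after the values were seen, the groups parted in 24 of 28 raised and 3 of 12 lowered probes, against 0.289% and 0.0217% of all probes. The probes were called on these same crabs, so the counts on either scale are a description and no independent evidence for the calls. Spread between crabs was larger in the heat stressed group for 27 of 28 raised probes (median SD 0.77 against 0.47) and for 2 of 12 lowered probes (0.96 against 0.99), and for 46.8% of all probes.

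Among the lowered probes, ATP synthase subunit a stood first. Pc01Hc13, annotated with that gene, had the largest fall of all probes: its control levels were 13.87, 12.16, 12.22, 10.23 and 11.21 and its heat stressed levels 12.08, 10.53, 10.56, 8.66 and 9.96. The groups overlapped in level, yet the heat stressed crab was the lower one in 5 of 5 pairs, by 1.79, 1.62, 1.66, 1.57 and 1.25. The mean difference was -1.58 ± 0.20 (SD, n = 5 pairs; standard error 0.090, adjusted p = 0.0031 in limma). Pc03Nd19, annotated with the same gene, had the smallest adjusted p of all probes, 0.0026 in limma. Its pair differences of -1.44, -1.38, -1.44, -1.52 and -1.29 gave -1.41 ± 0.087 (SD, n = 5 pairs). Pc03Ni14 and Pc04Nk04, from the same annotation, were lower by means of -1.35 and -1.34 (adjusted p = 0.014 and 0.0042 in limma).

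The fifth probe of this gene, Pc04Nk13, was below 0 in 5 of 5 pairs without passing the test, at -0.65 ± 0.21 (SD, n = 5 pairs; adjusted p = 0.066 in limma). Its pair differences were -0.84, -0.29, -0.69, -0.73 and -0.70, so that pair 2 stood apart. Pc01Hd14, annotated as cytochrome c oxidase subunit 2, was below 0 in 5 of 5 pairs too, at -0.05, -0.55, -0.23, -0.84 and -1.02, a mean of -0.54 (adjusted p = 0.76 in limma). Thus 4 of 5 probes of ATP synthase subunit a passed, all lowered, and 0 of 1 of cytochrome c oxidase subunit 2, against 0.0868% of all probes lowered. The median of the 5 was -1.35, and that of all probes -0.0020. These probes were picked out on the same crabs, so the count is no independent evidence of their direction.

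The other 8 lowered probes carry no gene name here. Pc04Nf18, Pc02He02, Pc04Ne17, Pc04No20 and Pc36Hk10 fell by means of -1.43, -1.22, -1.18, -1.16 and -0.93, against -1.58 to -1.34 for the 4 called ATP synthase probes. Pc04No20 was the most even of them: its 5 pairs lay between -1.32 and -1.03 (SD 0.11). The smaller falls were those of Pc06Wn13, Pc29Gi09 and Pc02Ho03, at -0.74, -0.61 and -0.51. These 3 probes, and Pc36Hk10, lost their call whichever replicate was left out.

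The differences of the called probes had mostly the same sign in both dye orientations, while their sizes could differ in single pairs. In pair 2, for example, Pc01Hc13 was at -2.45 on array a and -0.80 on array b. On the 2 arrays of a pair, which hold the same RNAs, the called probes had the same sign in 40 of 40 cases in pairs 1, 3, 4 and 5 and in 39 of 40 in pair 2, where Pc06Wn13 was at -1.27 on array a and 0.22 on array b. Over all probes both arrays had the same sign in 49.0 to 60.7% of cases, and their ratios correlated with r from 0.10 in pair 2 to 0.53 in pair 1. Over the called probes, which were selected on the mean of these arrays, r was between 0.87 and 0.96. All 10 arrays had the sign of the mean for 28 of 28 raised and 11 of 12 lowered probes, against 0.796% and 0.282% of all probes. The counts of signs have the same limit as r: the probes were selected on these arrays, so the counts are no independent check. The dye effect, taken as the difference between arrays a and b divided by 2, was at most 0.42 in size among the raised and 0.27 among the lowered probes. As a share of the mean difference of a probe, it was at most 0.34 among the raised and 0.27 among the lowered probes.

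**Figure D3:**
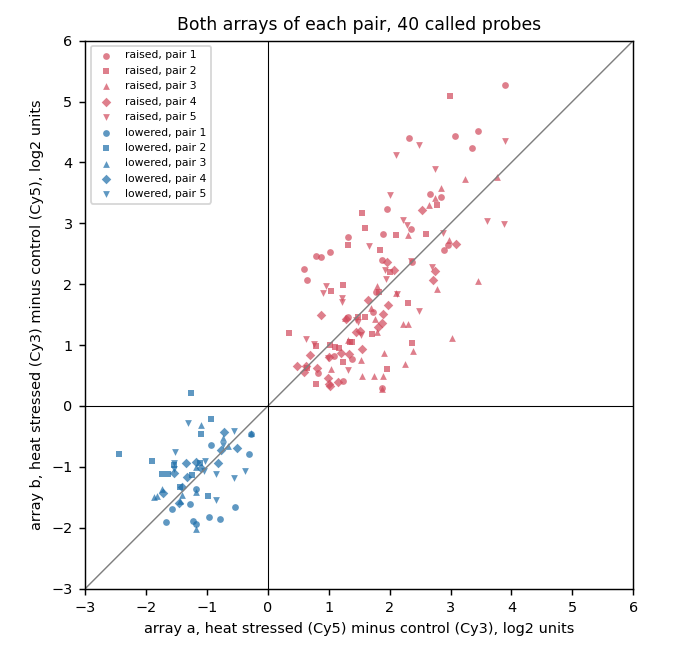
Difference between heat stressed and control crab on array a (x axis) and array b (y axis), in log2 units, for the 40 called probes in each of 5 pairs, with the line of equality. All but 1 of the points lie in the upper right or the lower left, where both arrays give the same sign. The exception is Pc06Wn13 in pair 2.

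The pairs responded to different degrees. Averaged over the 28 raised probes, the difference was 2.24, 1.67, 1.96, 1.39 and 2.15 in pairs 1 to 5. Averaged over the 12 lowered probes it was -1.23, -1.15, -1.18, -1.09 and -0.95. Pair 4 had the smallest rise in 17 and pair 2 in 9 of the 28 raised probes, and pair 1 had the largest in 14 and pair 5 in 11. Pair 5, second in the rise, had the smallest fall in 7 of the 12 lowered probes. A large rise did not go with a large fall in that pair.

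A further 22 probes changed by more than 1 log2 unit without being called, each with a rise that was above 0 in 5 of 5 pairs. The median SD of their pairs was 0.63, against 0.46 for the called raised probes, a gap that follows from choosing large changes that missed a test against the spread. Pc03No23 led this group with pair differences of 3.39, 1.67, 2.84, 1.19 and 2.18 (mean 2.25, adjusted p = 0.060 in limma). Pc35Hd22 came next at 2.17 (adjusted p = 0.10 in limma). Counting called and uncalled probes, 47 probes were higher and 8 were lower by more than 1 log2 unit.

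The identifiers give the place of a probe on the plates. The fifth character of an identifier is a letter whose meaning the labels do not give. Probes with the letter N, 768 in all, held 6 raised and 6 lowered probes, 0.781% in each direction. Letter G held 8 raised probes among 2304 (0.347%) and letter H 13 among 4992 (0.26%), while letter P held 0 called probes among 2298. Letter G also held 1 lowered probe, letter H 4, letter W 1 among 2304, and letter C 1 raised probe among 1152. No test was made of these shares. Of the 36 plates, 16 held a called probe. Pc31Hn17 and Pc31Ho17 sit in neighbouring wells of a plate, as do Pc04Ne17 and Pc04Nf18, and whether such neighbours share a cDNA was not tested.

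In crabs sampled at other times, most of these probes moved the same way. At 1 h all 28 raised probes were above 0 in 4 of 4 pairs and all 12 lowered ones were below 0 in 4 of 4, against 5.86% and 4.81% of all probes. All 28 raised probes had a larger mean difference at 1 h than at 2 h, with a median of 119% of the 2 h value, whereas 23% of all probes above 0 at 2 h were larger still at 1 h. For the lowered probes this was the case in 8 of 12, against 24.1% of all probes below 0. The called probes were measured in the same 4 pairs of 1 h, and most other probes changed little, so these shares are no test. The change from 1 h to 2 h itself was not detectable: limma called 0 of 13818 probes for it, 307 had an unadjusted p under 0.05, and the adjusted p was 1.00 for each of the 40 probes. Against 12 h, limma also called 0 probes, with 327 at an unadjusted p under 0.05. Leaving out replicate 4 of 2 h gave 1 call against 12 h, and the fit with all 41 pairs gave 1 call against 1 h.

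Fewer of these probes had their 2 h direction in every pair at later times. After 12 h it was 23 of the 28 raised probes (4.81% of all probes) and 9 of the 12 lowered ones (3.84%). After 18 h it was 22 of the raised (4.48%) and 9 of the lowered (4.86%), and after 24 h it was 18 of the raised (3.15%) and 9 of the lowered (5.96%). In the 30 h crabs, 17 raised probes (4.78%) but 1 lowered probe (2.32%) had the same direction in all 5 pairs. Most lowered probes thus no longer met this rule at 30 h, while 9 of 12 still had a mean below 0, from -0.60 to -0.46. A single pair near 0 is enough to miss the rule. In Pc01Hc13, for example, replicate 2 of 30 h was the highest at 0.053, and without it the mean was -0.76.

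Over the whole recovery the mean differences of the raised probes took separate courses, which are described here without a test. In 7 of the 28 the mean difference at 30 h exceeded that at 2 h. Pc01Hi06 had the highest value of them at 30 h: its mean difference was 3.87 after 1 h, 3.23 after 2 h, 3.42 by 12 h, 4.37 by 18 h, 3.84 by 24 h and 4.38 in the 30 h crabs. Pc04Ni13, Pc04Nb07, Pc03Nk19, Pc04Nd05, Pc33He01 and Pc14Hb02 did likewise, with 2.14 to 4.15 at 30 h. In 11 others the difference at 12 h was under 40% of that at 2 h. Pc02Hd18 went from 2.91 after 2 h to 0.85 by 12 h, 0.38 by 24 h and 0.99 in the 30 h crabs, and Pc28Gf14 from 2.62 to 0.77, 0.28 and 0.77. The 24 h means rested on replicate 4, at 1.98 for Pc02Hd18 and 1.63 for Pc28Gf14, without which they were -0.022 and -0.056. With any pair of 12 h left out, 10 of the 11 probes stayed under 40%, the exception being Pc04Ne07, and with any pair of 30 h left out all 7 stayed above their 2 h value. These groups were chosen on the same means, and the 2 h means were held fixed, so this is no support for separate courses. In limma, 0 of the 11 differed between 2 and 12 h. Of the 7, only Pc03Nk19 differed between 2 and 30 h, and the others had adjusted p of 0.23 to 0.82 in limma. Pc28Ge22, the probe with the largest rise at 2 h, lay between these courses, with 2.60 after 12 h, 3.55 after 18 h and 1.47 ± 1.5 (SD, n = 5 pairs) by 30 h. Its 30 h pairs ran from 0.24 to 4.01, and without replicate 1, the highest, the mean was 0.83.

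Some probes of like course varied together between crabs. Over the 24 pairs of 1, 12, 18, 24 and 30 h, taken as deviations from the mean of their time point, Pc04Ni13 had r = 0.94 with Pc01Hi06, and Pc04Nb07 and Pc03Nk19 had 0.77 each. Pc28Gf14, Pc28Gd20, Pc02Hh18 and Pc21Ge13 had r = 0.93, 0.90, 0.87 and 0.83 with Pc02Hd18, but between 0.13 and 0.31 with Pc01Hi06. Others of these groups did so less: over all pairs of probes, r ran from -0.075 to 0.93 (median 0.50) among the 11 that had dropped by 12 h, and from 0.30 to 0.94 (median 0.63) among the 7 with a larger difference at 30 h. Pc04Ne07 had r = 0.19 with Pc02Hd18, for example, and Pc33He01 had 0.37 with Pc01Hi06. Among the lowered probes, the 9 that stayed below 0 at 30 h formed a tight set, with r from 0.72 to 0.98 between its members. Pc04Nf18, Pc02He02 and Pc04No20, without a gene name, had r = 0.98, 0.94 and 0.88 with Pc01Hc13. The points share arrays, dyes and array brightness, so these coefficients are a description only.

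**Figure D4:**
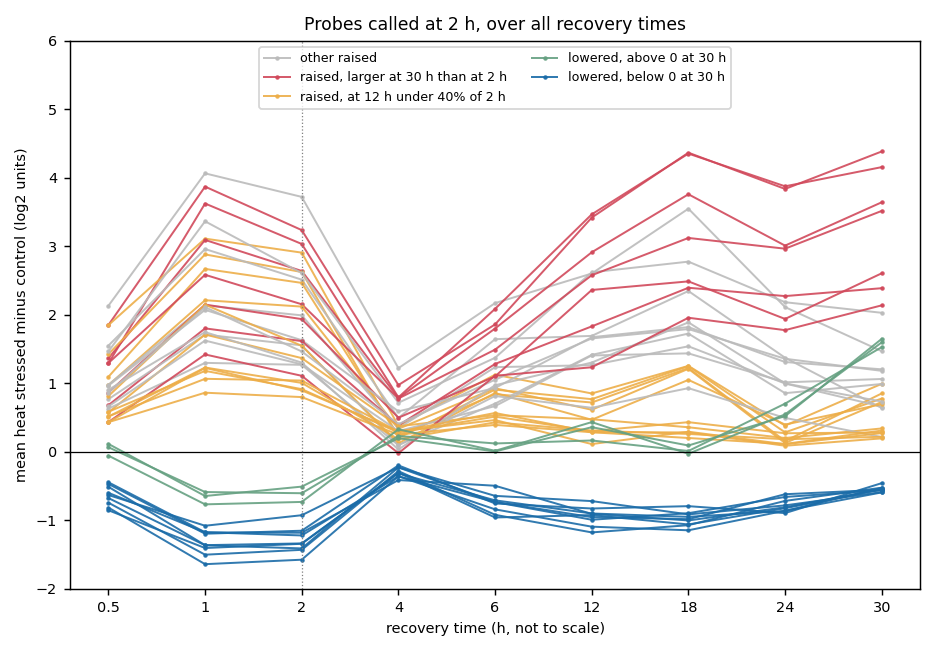
Mean difference between heat stressed and control crabs (y axis, log2 units, 3 to 5 pairs per time point, no error bars) of the 40 probes called at 2 h, at 9 recovery times (x axis, not to scale); the dotted line marks 2 h. Red lines stay high to 30 h, yellow lines fade by 12 h, and the 3 green lines change from below 0 at 2 h to above 0 at 30 h. The dip at 4 h and the lower means at 0.5 and 6 h go with pairs of those times that ran the opposite way or showed no change.

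At 0.5, 4 and 6 h some pairs stood apart from the others, and at 4 and 6 h the labels are themselves in doubt: title and description gave opposite treatments in 4 of 12 channels at 4 h (replicate 2) and in 8 of 16 at 6 h (replicates 3 and 4). The values follow the titles, and with the descriptions the signs of those replicates would turn. Averaged over the 28 raised probes, replicate 5 of 0.5 h was at -1.91 while the other 4 pairs were at 1.44 to 2.16. Replicate 1 of 6 h was at -1.98, with 1.76 to 2.40 in the others. Replicates 1 and 3 of 4 h were at -0.10 and -0.18, with 1.5 in replicate 2. Of the probes called at 2 h, 0 raised and 0 lowered probes kept their direction in all pairs at 0.5 h (4.13% and 2.58% of all probes) and at 6 h (4.4% and 4.54%), and 5 raised and 0 lowered ones did at 4 h (10.1% and 13.3%). In contrast, the mean over the raised probes was above 0 in each pair of 1, 2, 12, 18, 24 and 30 h.

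The response at 2 h did differ from that at 30 h. Limma on the 19 pairs of 1, 2, 12 and 30 h called 38 probes for a difference between these time points, 5 with the higher signed value at 2 h (0.0362% of all probes) and 33 with the higher signed value at 30 h (0.239%). Of the 40 probes called at 2 h, 7 were among them. Pc28Gf14, Pc21Ge13 and Pc35Hi17 were higher at 2 h than at 30 h by 1.85, 1.39 and 0.84 (adjusted p = 0.016, 0.0076 and 0.027 in limma). Pc03Nk19 was lower at 2 h, with 2.15 against 3.52 (adjusted p = 0.012 in limma). Pc02Hd18, which went from 2.91 to 0.99, missed the threshold (adjusted p = 0.064 in limma), and so did Pc01Hc13, which went from -1.58 to -0.60 (adjusted p = 0.33). Without the replicate block limma called 0 probes here, with 51 at an unadjusted p under 0.05, and 61 without replicate 1 of 30 h.

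Pc06Wn13, Pc29Gi09 and Pc02Ho03 turned their sign between these times. Pc06Wn13 was at -0.78, -0.52, -0.66, -0.75 and -0.96 in the 5 pairs of 2 h and at 1.43, 0.63, 1.95, 1.57 and 2.40 in the 5 pairs of 30 h. The pairs of the time points did not overlap. The difference between the times was -2.33 for Pc06Wn13, -2.13 for Pc29Gi09 and -2.16 for Pc02Ho03 (adjusted p = 0.00068, 0.00036 and 0.00045 in limma). Over the 24 pairs of other times these 3 probes had r from 0.94 to 0.96 with each other, and -0.19 to 0.013 with Pc01Hc13. They were not alone: of the 33 probes with the higher value at 30 h, 30 had a mean below 0 at 2 h and all 33 were above 0 in 5 of 5 pairs at 30 h. The median of the 33 was -0.44 after 1 h, -0.32 after 2 h, 0.20 by 12 h, 0.058 by 18 h, 0.47 by 24 h and 1.39 in the 30 h crabs. As these probes were selected for the difference between 2 and 30 h, those values are a description. For array b of replicate 5 at 30 h the description gives the treatments the other way round. With these arrays turned accordingly, at 12 and 30 h, limma called 8 probes in place of 38. Without replicate 5 of 30 h, limma called 35. By the titles, that replicate was at 2.40, 2.29 and 2.52 in Pc06Wn13, Pc29Gi09 and Pc02Ho03, the largest of the 5 pairs. Its mean over the probes raised at 2 h was 1.19, against 1.11 to 1.71 in the other pairs of 30 h. These values are means of arrays a and b as titled. Which label is right was not tested.

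**Figure D5:**
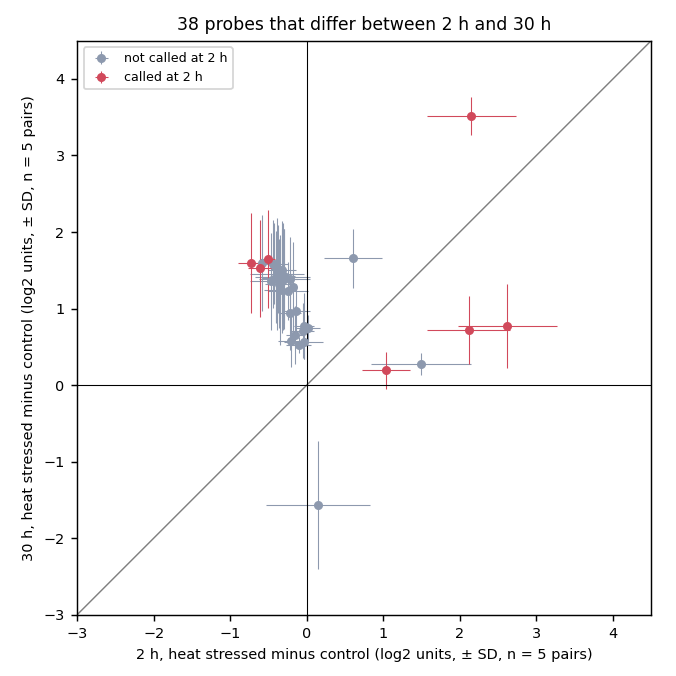
Mean difference between heat stressed and control crabs at 2 h (x axis) and at 30 h (y axis), in log2 units with SD over 5 pairs, for the 38 probes whose difference changed between these times; the diagonal marks equal values. Most points lie left of 0 at 2 h and above 0 at 30 h, and Pc06Wn13, Pc29Gi09 and Pc02Ho03, called at 2 h, are among them.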

How the data were processed

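The authors hybridised 10 µg of RNA of each crab to 2-dye cDNA arrays and deposited log2 intensities, 1 channel per column, for 13818 probes; the normalization applied before deposit, its background correction and the image software were not given in the sources used here. Groups were taken from the sample titles. Arrays a and b of a crab (technical dye swap) were averaged and differences were formed within pairs of equal replicate number. The crabs are separate animals by their crab numbers. That the numbers pair the crabs was read from the opposite dyes on shared arrays and checked by correlating deviations from the group means: r was 0.81, 0.67, 0.86, 0.83 and 0.61 for equal numbers in pairs 1 to 5, against medians of -0.41 to -0.057 for other numbers.

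The 5 differences of 2 h were fitted with lmFit and eBayes of limma 3.58.1 in R 4.3.3, with Benjamini-Hochberg adjustment and a threshold of 0.05, without a filter on dim probes. An exact sign-flip test over 5 pairs cannot fall below a two-sided p of 0.0625 and was not used. The 2 h differences were compared with those of 1, 12 and 30 h in a fit of 19 pairs. Tested on simulated data with 13818 probes, the 2 h fit recovered 38% of changes of 0.5 log2 units, 94% of changes of 1 and 100% of changes of 2, with 8 false calls. The changes were put on probes drawn at random, with independent noise of each probe's own SD. That SD had a median of 0.21 over all probes, 0.46 in the called raised and 0.20 in the called lowered probes. It was 0.63 in the 22 uncalled probes with large rises. The recovered shares therefore do not carry over to raised probes.

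Named probes were the 12 largest called rises and falls, Pc28Ge22, Pc01Hi06 and the 6 probes the paper annotates, whose genes were read from its displays; others were named after their values were seen. The time point, the lists and the tests were chosen with earlier results of these data known. No probe sequences or gene tables were used here, so gene lists by function were not applied. The courses without single pairs were computed after seeing the data. Alternatives covered the replicate block, the spread, normalization, dyes, dim probes and each left-out replicate.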

Additional observations from a re-analysis of the deposited data

Results flagged for a closer look

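Pc04Nk13, annotated as ATP synthase subunit a, had a pair far from the others: the gap between pair 2, at -0.29, and the nearest pair was 0.714 of the whole range of its 5 pair differences, above the critical value of 0.71. In all, 28 groups of values were examined in this way, of which chance flags about 1 in 20.

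The difference between heat stressed and control crabs changed between 2 h and 30 h for 38 probes by limma. Among the probes named at 2 h, the 2 h value exceeded the 30 h value by 1.85 in Pc28Gf14 and by 1.39 in Pc21Ge13. It was below the 30 h value in Pc03Nk19 (-1.36), Pc06Wn13 (-2.33), Pc29Gi09 (-2.13) and Pc02Ho03 (-2.16).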

How the results depend on the processing

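For 2 h, 40 probes were called with pairing. Without the replicate block limma called 1 probe from 10 crabs and 14 probes from 82 crabs. Array b alone gave 12, a dye term on single arrays 96, and a trended robust prior 20. Leaving out a replicate gave 10 to 30. The other 6 alternatives gave 35 to 60. For 2 h against 1 h, where 0 probes were called, 41 pairs with a shared spread gave 1, and leaving out a replicate gave 0 each time. For 2 h against 12 h, leaving out a replicate of 2 h gave 0 to 1, and the other alternatives gave 0. For 2 h against 30 h, with 38 calls, the fit without the replicate block gave 0, and the fit with array b of replicate 5 at 12 and 30 h turned as its description says gave 8. Leaving out a replicate of 2 h gave 32 to 43, and leaving out a replicate of 30 h, an alternative chosen after seeing the data, gave 29 to 61. For the 26 named probes, 128 of 442 alternative values lost the call, and Pc04Nk13 gained it with the dye term. The 442 include differences of group medians, which carry no test, and values of Pc04Nk13 and Pc01Hd14, which had no call to lose. Of the 442, 0 reversed, but many could not. Several alternatives keep the same mean, and leaving out 1 replicate cannot turn a mean whose 5 pairs share a sign, as in each named probe. The cause of these shifts was not tested. With 5 pairs, changes near 0.5 log2 units were mostly missed on simulated data.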
